A study of Homo sapiens with 6 samples.

Results

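The keratin genes of SCC25 cells were examined in untreated cells and in cells treated with aspirin. SCC25, a widely used established line, was derived from a squamous carcinoma of the mouth, and aspirin inhibits the prostaglandin-forming cyclooxygenases. The study asked how aspirin alters gene expression in this line, with total RNA on Illumina expression arrays. The control group was 3 arrays of untreated SCC25 cells, and the aspirin group 3 arrays of the same line with 2.0 mM aspirin, both grown for 72 h. Replicates 1 and 3 of both groups were on chip 1 and replicate 2 of both on chip 2, and the labels do not say whether replicates were separate cultures, so each p-value reflects only how far these arrays spread, and that spread may be technical. A gene was taken as a keratin when its symbol was KRT followed by digits and at most 1 letter from A to C, which gave 55 of 34693 genes. Of these 55, 23 passed the filter on detection (a detection score above 0.95 on at least 3 of 6 arrays) and were tested, 11 more were above background on at least 1 array, and 21 were not above background on any array. Of the 23 tested, 22 were above background on all 6 arrays and KRT33B on the 3 aspirin arrays only.

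Keratins are the intermediate filament proteins of epithelial cells. Each filament is built from heterodimers of an acidic type I and a basic type II keratin, and the partners used change with the kind of epithelium and its state. The proliferating basal layer of a stratified epithelium makes KRT5 with KRT14, and the layers above it replace them with differentiation keratins. Wounded or hyperproliferative epithelium makes KRT6, KRT16 and KRT17, simple epithelium makes KRT8 and KRT18 with KRT7 or KRT19, and the hair follicle has a large set of its own. The type I genes except KRT18 lie together on chromosome 17, and the type II genes with KRT18 on chromosome 12.

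Each array detected 14691 to 15170 of the 34693 genes (42.3% to 43.7%), and precision is limited by the small number of arrays. The epithelial identity of the line was seen in CDH1, EPCAM and TP63, which were above background on all arrays and did not pass the test (adjusted p = 0.461, 0.502 and 0.561). All 6 rows of the epithelial list were above background on all arrays, and of these SFN, or stratifin, passed as lower with aspirin (-0.91 ± 0.20, adjusted p = 0.0144). Fibroblast markers moved with the groups: 5 of 7 were above background on some array, and their summed normalised signal was 512 to 956 in controls and 245 to 275 with aspirin. All 4 tested fell, LUM by 2.88 and COL1A1 by 1.23 on the log2 scale, where 9.72% of all genes tested fell. Among the 4, DCN was above background on no aspirin array and passed the filter only through the controls, so its direction was built into its choice, while THY1 and PDGFRA were on no array above background. Among 4 leukocyte markers only CD14 was above background, and it passed as lower with aspirin (-0.94 ± 0.24, adjusted p = 0.0266). The summed signal of all 4 was 336 to 547 in controls and 217 to 285 with aspirin. Of 3 endothelial markers 2 were above background on some control array, and of 3 melanocyte markers 0 on any array. The part of these cell types in the keratin differences was not tested, and in bulk RNA fewer cells of a type and less RNA per cell cannot be told apart. Arrays with the same replicate number deviated together. Among the 34 keratins above background on some array, control 1 held the highest level of 11 and the lowest of 9, the most of any array. The highest and lowest counts were 4 and 5 for control 2, 2 and 1 for control 3, and 8 and 5, 4 and 6, and 5 and 8 for aspirin arrays 1 to 3. Values without the replicate 1 arrays are given beside the keratins whose call they change.

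With aspirin, the family moved in both directions. The basal partners KRT5 and KRT14 and the mucosal keratin KRT13 fell, while KRT80, the simple keratins KRT7 and KRT8 and the follicle keratins KRT75 and KRT86 rose. The stress keratins KRT6A, KRT6B, KRT16 and KRT17 did not pass the test. In all, 7 keratins rose and 5 fell at an adjusted p under 0.05 (limma, Benjamini-Hochberg over all 15128 genes tested), and 11 did not pass, where 20.2% of all genes tested passed, 10.5% as higher and 9.72% as lower. The 7 include KRT33B, which entered the test only through the aspirin arrays, so that its direction was built into its choice, and of the other 22 keratins tested 6 rose and 5 fell. Median scaling of the arrays kept 11 of the 12, with 6 higher and 5 lower, where 16.8% of all genes passed. It moved the share of higher genes among all calls from 51.9% to 40.3%. Of the 12 that passed, 9 differed at least 2-fold, 5 upward and 4 downward. The 9 made up 39.1% of the keratins tested, where 6.02% of all genes tested both passed and differed at least 2-fold. The groups did not overlap for 13 of these 22, 7 with aspirin above control and 6 below, where 38.8% of all genes tested did not overlap, 20.6% above and 18.2% below. The median size of the difference, without its sign, was 0.85 on the log2 scale over the 22 keratins and 0.27 over all genes tested, while the signed medians were -0.04 and 0.02. The groups did not overlap for any of the 12 that passed, which by itself requires the same sign in the 3 replicate pairs. Among all keratins tested, KRT33B included, 17 (73.9%) had the same sign in the 3 pairs, beside 61.5% of all genes tested. Without both replicate 3 arrays, 3 keratins rose and 2 fell, because the calls of KRT6C, KRT8, KRT9, KRT13, KRT15, KRT33B and KRT86 were lost (2.91% of all genes passed there). With the chip as a block all 12 passed (22.3% of all genes passed). On chip 1 alone 5 keratins rose and 4 fell (5.68% of all genes passed). In the chip 2 pair, which allows no test, the 12 differences had the same signs, as groups without overlap require. In what follows, levels are normalised signals on the log2 scale, ± SD, and differences are aspirin minus control on the log2 scale, ± SE, with n = 3 arrays per group and limma's adjusted p. Levels of different genes were not set against each other, since each row has its own probes.

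**Figure D1:**
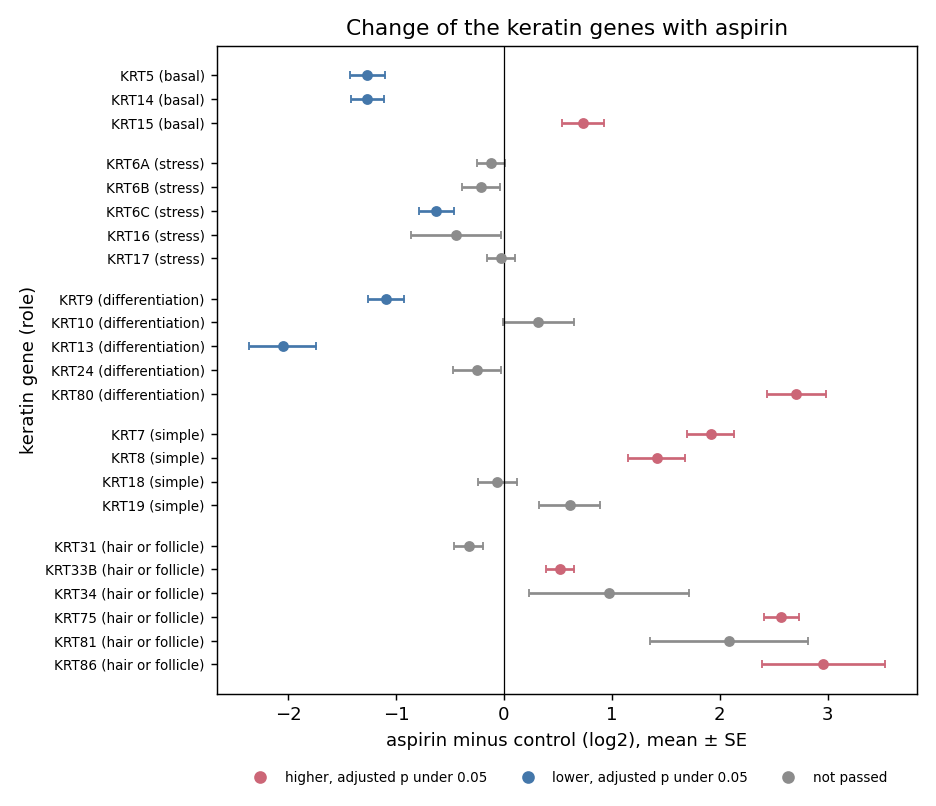
Difference between aspirin and control for the 23 keratins tested, in log2 units on the horizontal axis, as the mean ± SE of 3 arrays per group, grouped by role on the vertical axis. Red points rose, blue points fell and grey points did not pass; the largest rise is that of KRT86 (2.96) and the largest fall that of KRT13 (-2.05).

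Proximal promoters were read to show what the keratins share in sequence beside their name. Of the 55 keratins, 34 had an entry in RefSeq's promoter table (GRCh38.p14), with 38 promoters in all, and among the 12 that passed these were KRT5, KRT8, KRT9, KRT33B and KRT75. The letters ATAA, the core of a TATA box, started 20 to 40 bases before the start, on either strand, in 31 of these 38 promoters and in 12.4% of all 35116 promoters. Within 250 bases before the start, the AP-1 motif TGANTCA was found in 0 of the 38 keratin promoters (6.57% of all) and the GC box GGGCGG in 4 (42.6% of all), on either strand. These matches are descriptions of the letters, not binding sites. Below are the 100 bases before the start of KRT5 and KRT9, which fell, and of KRT75 and KRT33B, which rose, KRT33B with its direction built into its choice. They are shown to set opposite directions side by side, from the minus strand, 5′ to 3′, with ATAA in capitals. They lie at chr12:52520395-52520494, chr17:41572060-41572159, chr12:52434372-52434471 and chr17:41369814-41369913.
KRT5: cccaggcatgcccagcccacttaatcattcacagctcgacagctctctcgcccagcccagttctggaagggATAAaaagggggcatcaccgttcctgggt
KRT9: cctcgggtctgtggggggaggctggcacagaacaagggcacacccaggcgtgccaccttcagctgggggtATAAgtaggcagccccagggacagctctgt
KRT75: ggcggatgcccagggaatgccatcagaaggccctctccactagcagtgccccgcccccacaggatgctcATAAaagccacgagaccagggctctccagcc
KRT33B: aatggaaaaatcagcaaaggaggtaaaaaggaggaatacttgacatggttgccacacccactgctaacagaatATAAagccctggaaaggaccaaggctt
The ATAA letters start 29, 30, 31 and 27 bases before the start of KRT5, KRT9, KRT75 and KRT33B, so the genes that fell and those that rose hold them within a few bases of the same place. The promoter of KRT8 in the same table has none in that window.

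Of the 3 basal keratins tested, 2 fell and 1 rose. KRT5, the type II keratin of the basal layer, had levels of 13.17, 13.13 and 12.86 on controls 1 to 3 and of 11.97, 11.85 and 11.54 on aspirin arrays 1 to 3. All aspirin arrays lay below all controls, and the difference was -1.27 ± 0.16 (adjusted p = 0.00170), a 2.41-fold lower signal. KRT14, its type I partner, had 13.47, 13.31 and 13.31 in controls and 12.33, 12.00 and 11.96 with aspirin. It differed by -1.27 ± 0.15 (adjusted p = 0.00125), or 2.40-fold, so both partners of the basal filament fell by nearly the same amount. Their genes lie on different chromosomes. On chip 1 alone KRT5 changed by -1.26 and KRT14 by -1.24, and in the chip 2 pair the differences were -1.28 and -1.31.

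KRT15, a type I keratin of basal cells and of the hair follicle bulge, moved the other way. Its levels were 9.51, 8.85 and 9.04 in controls and 9.67, 9.94 and 9.99 with aspirin, which do not overlap, though control 1 lay close to aspirin 1. The rise of 0.73 ± 0.19 had an adjusted p of 0.0294. The call was lost without any 1 of control 2, control 3, aspirin 2 and aspirin 3 (adjusted p up to 0.102), on chip 1 alone (0.56, adjusted p = 0.204), with median scaling (0.61, adjusted p = 0.0753), with the background taken from all listed genes (adjusted p = 0.0665), with no filter (adjusted p = 0.0620) and from the deposited matrix (adjusted p = 0.0644).

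**Figure D2:**
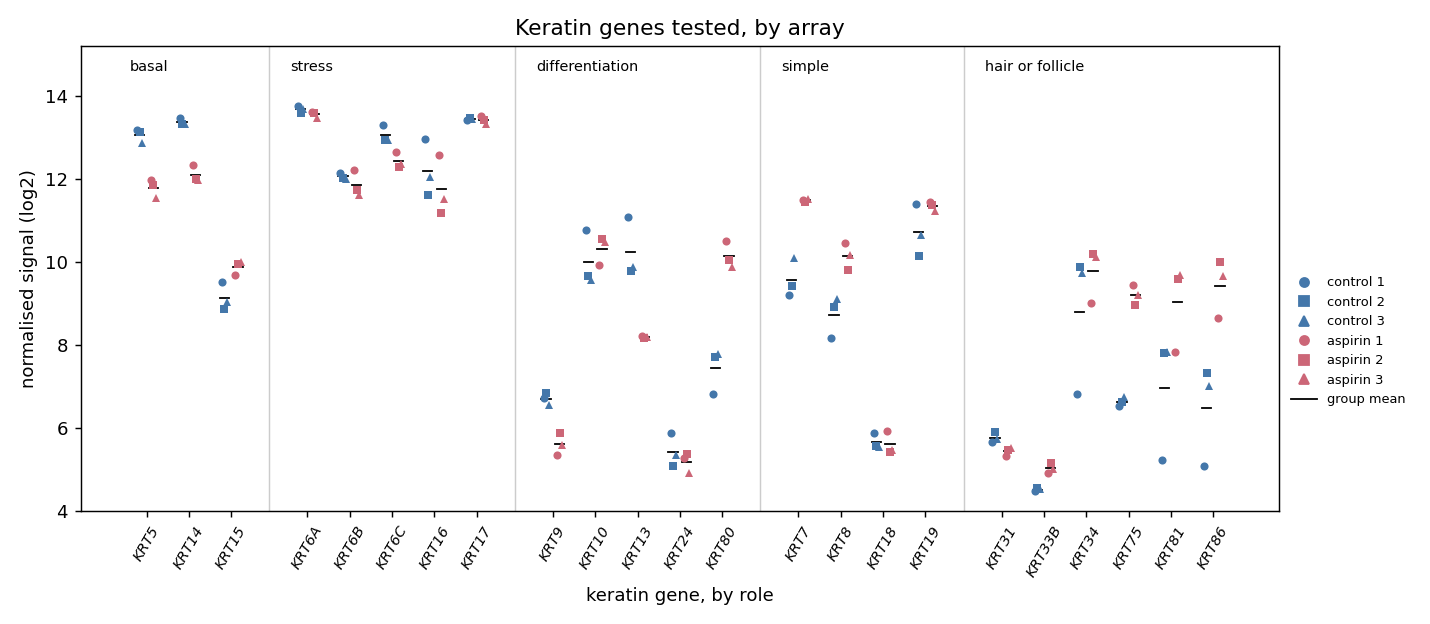
Normalised signal (log2, vertical axis) of the 23 keratins tested on each array, grouped by role along the horizontal axis, with controls in blue, aspirin in red, a marker shape for each replicate number and a line at the mean of each group. KRT5, KRT14 and KRT13 are lower and KRT80, KRT7 and KRT75 higher on every aspirin array than on every control, while control 1 stands apart for KRT34, KRT81 and KRT86.

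Stress keratins mark wounded, inflamed and fast-growing epithelium. All 5 were tested, and 1 fell while 4 did not pass. KRT6A, a type II stress keratin, had 13.67 ± 0.09 in controls and 13.56 ± 0.07 with aspirin (-0.12 ± 0.13, adjusted p = 0.576). Its deposited signal was the highest of all genes on control 1 (13850.5 intensity units), and how well such high signals resolve a difference was not tested. KRT17, a type I stress keratin, was at 13.45 ± 0.03 and 13.42 ± 0.10 (-0.03 ± 0.13, adjusted p = 0.909), and this difference turned to 0.058 with cyclic loess normalisation. KRT6B had 12.06 ± 0.08 in controls and 11.85 ± 0.32 with aspirin (-0.21 ± 0.18, adjusted p = 0.457).

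KRT6C, the third gene of that group, had 13.30, 12.93 and 12.94 in controls and 12.64, 12.28 and 12.36 with aspirin. Its groups did not overlap, and it fell by 0.63 on the log2 scale (-0.63 ± 0.16, adjusted p = 0.0300). KRT6A, KRT6B and KRT6C are near-identical neighbours on chromosome 12, so signal could be shared between their rows and the value of KRT6C is uncertain. Its call was lost without any 1 array other than aspirin 1 (adjusted p up to 0.0982), on chip 1 alone (-0.62, adjusted p = 0.143) and with the background taken from all listed genes (adjusted p = 0.0549).

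KRT16, the type I partner of KRT6, had a wide spread within both groups. Controls 1 to 3 had 12.96, 11.60 and 12.04 and aspirin arrays 1 to 3 had 12.58, 11.18 and 11.51, so both replicate 1 arrays were the highest of their group. The unpaired difference was -0.44 ± 0.42 (adjusted p = 0.509). Within pairs the differences were -0.38, -0.42 and -0.53, and with the replicate number as a block KRT16 passed as lower (adjusted p = 0.0226).

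Differentiation keratins replace the basal pair in the upper layers. Of 14 rows in this group, 5 were tested, with 1 higher, 2 lower and 2 that did not pass. KRT13, the type I keratin of the upper layers of non-cornified oral mucosa, had 11.08, 9.78 and 9.86 in controls and 8.22, 8.16 and 8.19 with aspirin. All aspirin arrays lay below all controls and close together (8.19 ± 0.03, against 10.24 ± 0.73 in controls), and the difference of -2.05 ± 0.31 (adjusted p = 0.00353) was the largest fall of the family and the 93rd largest among all genes tested. The difference was -2.26 on chip 1 and for the chip 2 pair -1.62, it was -1.65 without both replicate 1 arrays (adjusted p = 0.000428) and lost its call without both replicate 3 arrays (adjusted p = 0.0518). KRT4, the type II partner of KRT13 in mucosa, was above background only on control 1, with a level of 8.38 there and between 4.37 and 4.59 on the other 5 arrays, and was not tested.

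KRT9, known as the type I keratin of palm and sole epidermis, had 6.71, 6.83 and 6.55 in controls and 5.35, 5.87 and 5.59 with aspirin. It was dim on all arrays, with deposited signals of 114.8 to 234.6 intensity units where the background averaged 95.4 to 116, and its groups did not overlap. The fall of -1.09 ± 0.17 (adjusted p = 0.00373) was -1.16 on chip 1, -0.96 for the pair on chip 2 and -0.12 with the background taken from all listed genes (adjusted p = 0.0191), and lost its call without both replicate 3 arrays (adjusted p = 0.0658).

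KRT80, a type II keratin of many epithelia that is linked to later differentiation, had 6.81, 7.71 and 7.77 in controls and 10.50, 10.04 and 9.88 with aspirin. Every aspirin array was over 2 log2 units above every control, and the difference of 2.71 ± 0.28 (adjusted p = 0.000762) was a 6.54-fold rise, the third largest among all genes tested. On chip 1 KRT80 rose by 2.90, and the pair on chip 2 differed by 2.33.

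KRT10, the type I keratin of the upper epidermal layers, did not pass (0.32 ± 0.33, adjusted p = 0.542). It had 10.78, 9.66 and 9.55 in controls and 9.91, 10.55 and 10.49 with aspirin, so that it was lower with aspirin in pair 1 (-0.86) and higher in pairs 2 and 3 (0.89 and 0.94). Without both replicate 1 arrays it rose (0.91, adjusted p = 0.00489). KRT1, the type II partner of KRT10, was above background only on control 1, at 9.18, against 4.24 to 4.46 on the other arrays. KRT24 did not pass (-0.25 ± 0.22, adjusted p = 0.490), KRT78 was above background only on control 1, and KRT2, KRT3, KRT12, KRT76, KRT77 and KRT79 were on no array above background.

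Of all 6 arrays, control 1 held the highest level of the differentiation keratins KRT1, KRT4, KRT10, KRT13, KRT24 and KRT78. The same held for the basal keratins KRT5 and KRT14 and the stress keratins KRT6A, KRT6C and KRT16. Control 1 held the lowest level of KRT80, KRT7 and KRT8. It also held the lowest level of the hair and follicle keratins KRT33B, KRT34, KRT75, KRT81, KRT83 and KRT86, with KRT33B and KRT83 below background there. Without both replicate 1 arrays, 15 keratins passed, 10 as higher and 5 as lower, where 20.8% of all genes tested passed. The 15 included all 12 called from the 6 arrays, with KRT10, KRT19 and KRT81 in addition.

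**Figure D3:**
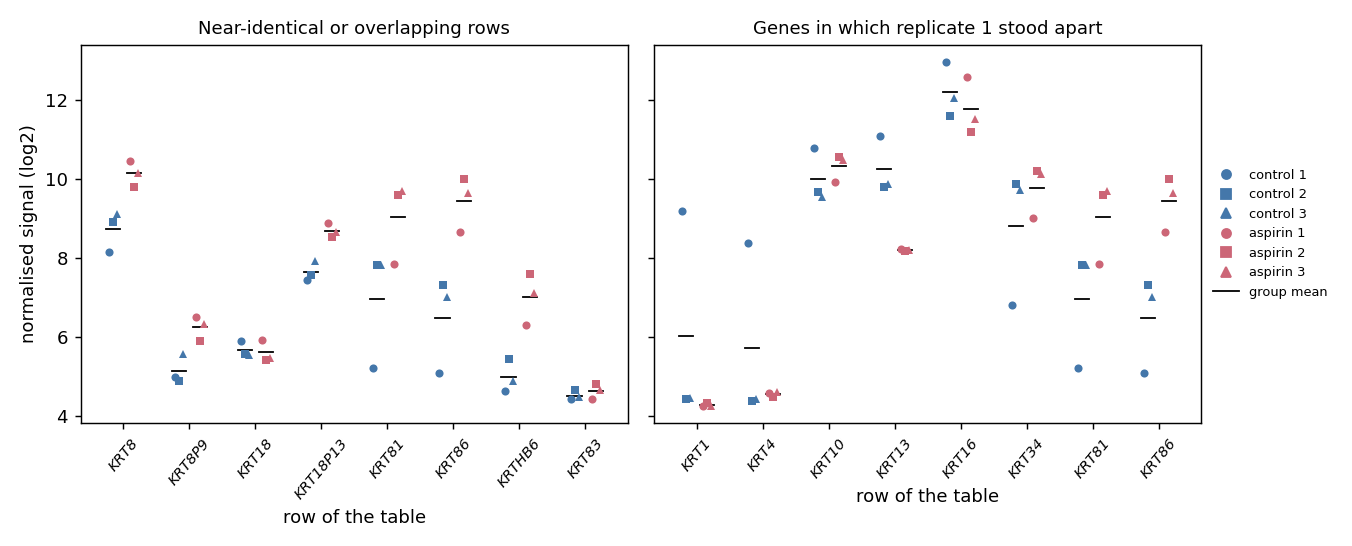
Normalised signal (log2, vertical axis) on each array, with controls in blue, aspirin in red, a marker shape for each replicate number and a line at each group mean. At left, keratin rows beside rows of near-identical or overlapping genes, in which KRT8 and KRT8P9, KRT18P13, and KRT86 and KRTHB6 are higher with aspirin; at right, keratins in which replicate 1 stood apart, with KRT1 and KRT4 above background on control 1 only.

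Simple keratins fill the single-layered epithelia and are often regained in carcinomas. Of 5 rows, 4 were tested, with 2 higher and 2 that did not pass. KRT7, a type II keratin of glandular and ductal epithelium, had 9.19, 9.42 and 10.08 in controls and 11.49, 11.45 and 11.51 with aspirin. Treated arrays were close together and all above the controls, and the rise of 1.92 ± 0.22 (adjusted p = 0.00111) was 3.77-fold, 1.86 within chip 1 and 2.03 for the pair on chip 2 (log2). KRT8, the first type II keratin of embryonic and simple epithelium, had 8.16, 8.91 and 9.10 in controls and 10.45, 9.80 and 10.16 with aspirin. It rose by 1.42 ± 0.26 (adjusted p = 0.00795), or 2.67-fold, on chip 1 by 1.68 and for the pair on chip 2 by 0.90, and the call did not hold when replicate 3 was left out (1.59, adjusted p = 0.0679).

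KRT18, the type I partner of KRT8, did not pass. Its levels were 5.66 ± 0.19 in controls and 5.60 ± 0.28 with aspirin (-0.06 ± 0.18, adjusted p = 0.853), with deposited signals of only 126.1 to 155.6 intensity units. The table also lists rows of KRT18 and KRT8 pseudogenes, which resemble the parent genes in sequence, and these rows were examined after their values were seen. Of 13 such rows 4 were tested, of which 2 passed as higher and 2 did not pass, namely KRT18P28 (0.61 ± 0.20, adjusted p = 0.0667) and KRT18P30 (0.10 ± 0.12, adjusted p = 0.623), and the 9 not tested had differences of -0.29 to 0.48. KRT18P13 had 7.44, 7.57 and 7.93 in controls and 8.87, 8.52 and 8.66 with aspirin, a rise of 1.04 ± 0.17 (adjusted p = 0.00485; 1.08 on chip 1, adjusted p = 0.0501), and KRT8P9 rose by 1.10 ± 0.23 (adjusted p = 0.0122). With the background taken from all listed genes KRT18P13 rose by 0.59 (adjusted p = 0.0211) and KRT8P9 lost its call (0.09, adjusted p = 0.0737), as it also did without aspirin 3 (adjusted p = 0.0511), on chip 1 alone (1.14, adjusted p = 0.052) and when replicate 3 was left out (adjusted p = 0.0637). Which transcript gave the signal of these rows cannot be told apart here, so the direction of KRT18 itself is uncertain. RefSeq also has the spans of KRT8 and KRT18 overlapping on chromosome 12.

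KRT19, the smallest keratin and a type I partner of KRT7 and KRT8, did not pass (0.61 ± 0.28, adjusted p = 0.164). It had 11.39, 10.15 and 10.65 in controls and 11.43, 11.36 and 11.21 with aspirin, so control 1 lay among the treated arrays. It rose when replicate 1 was left out (0.89, adjusted p = 0.0175) or control 1 alone (0.94, adjusted p = 0.0131). KRT20, a keratin of gut epithelium, was on no array above background.

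The hair and follicle group holds 26 rows, of which 6 were tested and 14 were on no array above background. Of the 6 tested, KRT75 and KRT86 rose, KRT33B rose after entering the test only through the aspirin arrays, and 3 did not pass. KRT75, the type II keratin of the follicle's companion layer, had 6.51, 6.63 and 6.75 in controls and 9.45, 8.96 and 9.19 with aspirin. Its groups were far apart, and the rise of 2.57 ± 0.16 (adjusted p = 0.000132), 5.94-fold, had the lowest adjusted p of the family. On chip 1 it was 2.69, for the chip 2 pair 2.33 and 1.39 with the background taken from all listed genes (adjusted p = 0.0106).

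KRT86, a type II keratin of the hair cortex, had 5.08, 7.32 and 7.00 in controls and 8.64, 9.99 and 9.65 with aspirin. The difference of 2.96 ± 0.57 (adjusted p = 0.00885), 7.79-fold, was the second largest rise among all genes tested. With the background taken from all listed genes it was 1.73 (adjusted p = 0.0713), and the call was also lost from the deposited matrix (3.35, adjusted p = 0.0673) and when replicate 3 was left out (3.12, adjusted p = 0.0907). On chip 1 it was 3.11, for the chip 2 pair 2.67 and with the replicate 1 arrays left out 2.66 (adjusted p = 0.000181). KRT81, another cortex keratin, had 5.22, 7.81 and 7.82 in controls and 7.83, 9.60 and 9.68 with aspirin. Aspirin arrays 2 and 3 were far above all controls, but aspirin 1 only matched controls 2 and 3, and the difference of 2.09 ± 0.74 did not pass (adjusted p = 0.0794). Within pairs KRT81 was higher by 2.61, 1.79 and 1.86, and it passed with the replicate number as a block (adjusted p = 0.000262), when replicate 1 was left out (1.82, adjusted p = 0.000280) and without aspirin 1 (2.69, adjusted p = 0.0414). It was smaller and did not pass without control 1 (1.22, adjusted p = 0.127) and with the background taken from all listed genes (1.26, adjusted p = 0.183).

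KRT81, KRT83 and KRT86 are near-identical, and RefSeq places KRT81 within the span of KRT86 on chromosome 12, so the values of KRT81 and KRT86 may share signal and are uncertain. A separate row under the name KRTHB6, an older symbol that RefSeq lists for KRT86, had 4.63, 5.44 and 4.87 in controls and 6.29, 7.59 and 7.12 with aspirin (2.01 ± 0.33, adjusted p = 0.00492). It was above background on 2 of 3 controls, and its call was lost with the background taken from all listed genes (0.24, adjusted p = 0.0995) and when replicate 3 was left out (adjusted p = 0.0932). KRT83 was above background on 1 aspirin array and was not tested.

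Among the type I hair keratins, KRT33B was above background on all 3 aspirin arrays and on no control. Its signal was at least 1.14-fold higher with aspirin (adjusted p = 0.0266), and because it passed the filter only through the aspirin arrays, a difference in this direction was built into its choice. The call was lost without any 1 array other than aspirin 1 (adjusted p up to 0.0904), on chip 1 alone (adjusted p = 0.164), with the background taken from all listed genes (0.03, adjusted p = 0.139), with an offset of 50 (adjusted p = 0.0941) and from the deposited matrix (adjusted p = 0.454). KRT33A, its near-identical neighbour, was above background on 2 aspirin arrays and on no control, with 4.43, 4.37 and 4.39 in controls and 4.77, 4.91 and 5.08 with aspirin, and passed only when no filter was applied (0.52, adjusted p = 0.0220). KRT34 had 6.81, 9.87 and 9.73 in controls and 9.02, 10.19 and 10.12 with aspirin, and did not pass (0.97 ± 0.74, adjusted p = 0.405), with -0.023 when control 1 was left out and 0.36 when both replicate 1 arrays were (adjusted p = 0.131). KRT31 was lower on all aspirin arrays than on all controls without passing (-0.33 ± 0.14, adjusted p = 0.128).

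Other hair and follicle keratins were seen on at most 1 array per group. KRT36 was above background on control 3 and aspirin 1, KRT37 and KRT73 on control 3 only, and KRT74 on control 2 only. The 14 on no array above background included the inner root sheath keratins KRT25, KRT26, KRT27, KRT28, KRT71 and KRT72. Over all 21 keratins on no array above background, deposited signals were 85.1 to 122.2 intensity units and differences -0.16 to 0.10. Outside these roles, KRT23 was above background on 1 control and on all 3 aspirin arrays, with 4.76, 4.66 and 4.95 against 5.28, 5.35 and 5.89. It missed the detection filter and passed with a filter on the signal itself (0.72, adjusted p = 0.0275), though not with no filter (adjusted p = 0.0614). KRT222 was above background on 2 controls and on no aspirin array, and was not tested.

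By type, 5 of 10 type II keratins tested rose and 2 fell. Of 13 type I keratins tested 3 fell and 2, KRT15 and KRT33B, rose, KRT33B with its direction built into its choice. Over all genes tested 10.5% were higher and 9.72% lower. In the gene order of chromosome 12, KRT80, KRT7, KRT86 and KRT81 are the first 4 of 27 keratins, and they had differences of 2.71, 1.92, 2.96 and 2.09, the last of which did not pass. The next 4, KRT83, KRT85, KRT84 and KRT82, were not tested and had differences of -0.01 to 0.12. Then came KRT75 (2.57), and directly after it KRT6B, KRT6C, KRT6A and KRT5, all with negative differences, of which KRT6C and KRT5 passed. KRT8, which rose, is the 26th, beside KRT18. On chromosome 17, KRT13 (-2.05), KRT15 (0.73), KRT19 (0.61, not passed), KRT9 (-1.09) and KRT14 (-1.27) are consecutive keratins, so neighbours there had opposite signs.

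**Figure D4:**
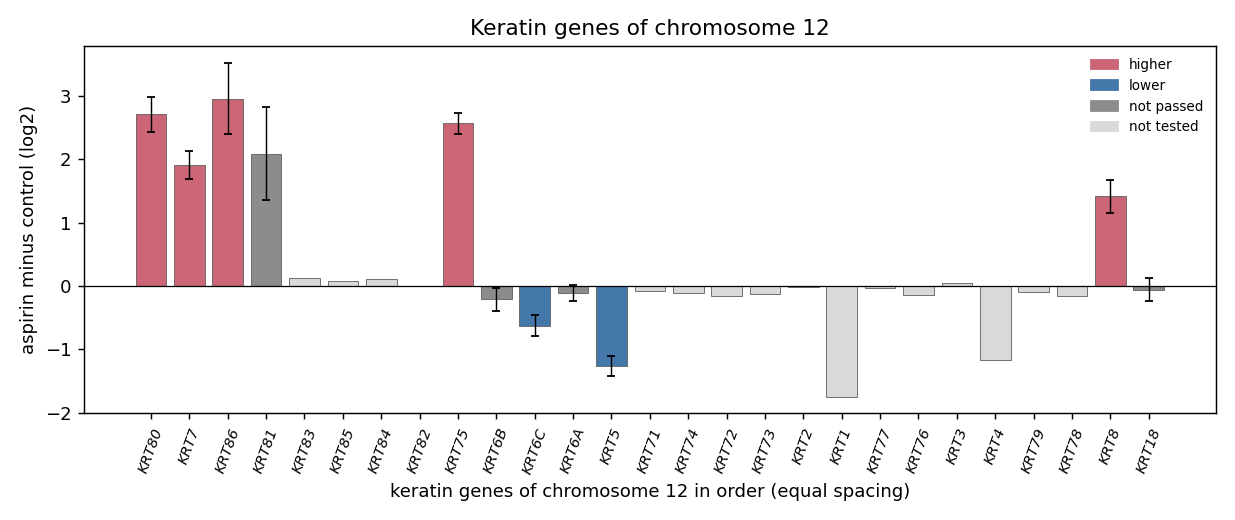
Difference between aspirin and control (log2, vertical axis) for the 27 keratin genes of chromosome 12 in their order on the chromosome, spaced equally, with SE bars for the genes tested. Differences over 1 are those of KRT80, KRT7, KRT86, KRT81, KRT75 and KRT8, and the pale bars of KRT1 and KRT4, which were not tested, rest on control 1 alone.

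Genes of proteins that bind keratin filaments were listed beside the keratins. Of 13 such partners, among them plakins and plakophilins that anchor keratins to desmosomes, 8 were tested and 0 passed limma's adjusted p, where 20.2% of all genes did, and 2 had an unadjusted p under 0.05. With the replicate number as a block 1 rose and 2 fell, where 33.2% of all genes tested passed. Of the 8, 1 rose with another variance prior (21.4% of all genes passed), with the chip as a block (22.3%) and without both replicate 1 arrays (20.8%). From the deposited matrix 1 fell (17.9%). The lowest adjusted p belonged to PPL, or periplakin, a plakin that joins filaments to the cell envelope (0.92 ± 0.29, adjusted p = 0.0540), then TCHP (-0.31 ± 0.13, adjusted p = 0.122), PKP3 (-0.39 ± 0.20, adjusted p = 0.212) and desmoplakin (DSP, -0.38 ± 0.27, adjusted p = 0.379). In the fit blocked on replicate number the adjusted p was 0.00513 for PPL, 0.0468 for PKP3 and 0.0469 for DSP. PPL also passed without control 1 (1.26, adjusted p = 0.00385). PKP1, plakophilin 1 of desmosomes, missed the detection filter despite a clear signal and was named after its values were seen. Its levels were 9.96, 9.58 and 9.57 in controls and 8.06, 8.41 and 8.44 with aspirin, and it fell with a filter on the signal itself (-1.40, adjusted p = 0.00147).

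Of 16 other intermediate filament genes, 11 were tested, of which 4 fell and 7 did not pass, beside 9.72% of all genes tested that fell. With the replicate number as a block, where 33.2% of all genes tested passed, the same 4 fell and PRPH, or peripherin, passed as higher (0.55, adjusted p = 0.0342). LMNB1, a B-type lamin of the nuclear envelope, fell by 2.31 on the log2 scale (-2.31 ± 0.29, adjusted p = 0.00157) and LMNA, the A-type lamin, by 1.25 (-1.25 ± 0.16, adjusted p = 0.00172). LMNB2, named here as another B-type lamin, did not pass (-0.31 ± 0.17, adjusted p = 0.247). The neurofilament gene NEFL differed by -1.43 ± 0.16 (adjusted p = 0.000960). SYNC, which was above background on 1 of 3 aspirin arrays, differed by -0.64 ± 0.18 (adjusted p = 0.0393). With the background taken from all listed genes LMNB1 changed by -0.51 and NEFL by -0.17, both past the threshold, while SYNC lost its call (adjusted p = 0.168), as it also did without any 1 array other than aspirin 3 (adjusted p up to 0.113) and on chip 1 alone (adjusted p = 0.18). LMNA lost its call without both replicate 3 arrays (-1.17, adjusted p = 0.0523).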

How the data were processed

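Total RNA of 3 control and 3 aspirin samples was measured on Illumina arrays. Per the file headers, the authors deposited a non-normalised signal intensity for each gene and array, background included, beside a detection column. GenomeStudio 1.9.0 is named in the submitters' processing notes, while the sources used here state neither build nor probe annotation. The deposited detection values are headed as p-values but ran the other way (mean 0.994 for the 1000 brightest genes and 0.170 for the 1000 dimmest), so each was read as a detection score of 1 minus p. The deposited matrix holds the same intensity minus 1 constant per array, with many names shifted, and served as an alternative after realignment.

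Of 34694 genes listed, 1 with a signal of 0 was dropped. Background was removed by normexp, with its mean and SD from the genes whose scores lie on steps of 1/770, 16 was added as an offset, and arrays were quantile-normalised on the log2 scale. Genes scoring above 0.95 on 3 or more of the 6 arrays were fitted with limma 3.58.1 in R 4.3.3 (lmFit, eBayes, no block), with Benjamini-Hochberg adjustment over all 15128 and a threshold of 0.05. Above background means a score above 0.95 or a signal over the background mean plus 3 SD. A fold for a gene below background on every array of a group is a lower bound, against the higher of the dimmest level above background and its own. The code was checked on simulated data.

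Same-numbered control and aspirin arrays deviated together (correlations of deviations from group means 0.508, 0.516 and 0.320), so the numbers may pair the arrays. No label states it, and arrays of different numbers were not compared in this way. A fit blocked on replicate number is therefore an alternative. Others were background, offset, scaling, filter, variance prior, chip and left-out arrays. Every keratin tested or above background on some array is named, with up to 4 of the lowest p-values in each of the partner and other intermediate filament lists, and exceptions are stated. The members and lists were chosen with earlier results of these data known. Gene order and promoters came from RefSeq tables (GRCh38.p14), in which all 55 keratins were found.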

Additional observations from a re-analysis of the deposited data

How the results depend on the processing

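Across 19 alternatives the keratins tested kept their direction and their side of the threshold in 388 comparisons, lost a call in 34, gained one in 7 and changed sign in 7. The count of all genes past the threshold, 3059, became 5020 with the replicate block and ranged from 440 to 3149 when arrays were left out. The 7 keratins that rose became 8 with the replicate block, 4 with the background taken from all listed genes and 4 from the deposited matrix, and 3 to 10 when arrays were left out. The 5 that fell became 6 with the block and 2 to 5 when arrays were left out. The block added KRT16 and KRT81 and changed no other keratin call. Signs turned only for genes that did not pass: KRT17 was 0.058 with cyclic loess and -0.091 to 0.019 over left-out arrays, KRT18 -0.22 to 0.050, KRT34 -0.023 to 1.51 and KRT17P3 -0.39 to 0.25. The cause was not tested. Signals close to background, as for KRT9, KRT18, KRT24, KRT31 and KRT33B, limit their differences, whose size depends on the background estimate.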
